A study of Mus musculus with 2 samples.

Results

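Astrocytes are the glial cells that buffer potassium and water, recycle glutamate and supply lipids and metabolites to neurons, and neural stem cells make them after neurons. A set of 35 genes known as markers or working parts of these cells was followed here. The genes were taken by symbol, and all 35 were found among the 15953 genes of the deposited table, 1 row each. They comprise 6 water, ion and zinc transport genes, 4 genes of junctions and adhesion, 4 receptors, 8 metabolic enzymes, 7 secreted proteins, 3 metallothioneins and 3 other intracellular proteins.

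Many of these genes are not exclusive to mature astrocytes. Radial glia and adult neural stem cells share part of the programme, including the lipid carrier gene Apoe and the connexin gene Gja1, and S100b is also made by cells of the oligodendrocyte lineage. Factors that drive astrocyte formation include cytokines acting through STAT3, bone morphogenetic proteins (BMPs), NOTCH signals and the transcription factors SOX9 and NFIA. Mature cells are joined by gap junctions and wrap blood vessels with endfeet that carry the water channel aquaporin-4.

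The cells were mouse neural stem cells in suspension culture, from mice with a conditional knockout of Hikeshi (cKO, 1 library) and from wild-type mice (1 library). Hikeshi is the nuclear import carrier of HSP70, and the series asks how its loss bears on proliferation and differentiation. The labels name neither the Cre driver nor the age of the animals. Without replicates, no test between genotypes was possible, and every value below compares these 2 libraries.

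The libraries held 18912683 reads (cKO) and 18839079 reads (wild type). Hikeshi itself had 640 reads in the cKO library and 718 in the wild-type library. Counts over a whole gene need not fall when part of it is deleted, so this level does not settle the genotype. The Y-linked genes Eif2s3y and Ddx3y had 1265 and 846 reads in the cKO library, against 0 and 0 in the wild-type library, so a difference in Y-linked expression coincides with the genotype labels and cannot be told apart from them. Sox2, a transcription factor that defines neural stem cells, had 404 CPM (reads per 1000000 reads counted) in the cKO library and 407 CPM in the wild-type library, and the progenitor filament gene Nes 780 and 569 CPM. These are the defining markers of the labelled cell type, and both were plainly present.

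Most of the astrocyte genes were lower in the cKO library. On the log2(CPM + 1) scale 26 of the 35 were at least 1.5-fold lower and 0 were at least 1.5-fold higher, whereas 10.2% of the 12618 genes with at least 1 CPM in a library were that much lower and 4.22% that much higher. At 2-fold, 21 of the 35 were lower, beside 3.85% of all genes kept. The median difference of the 35 was -1.07, cKO minus wild type, and that of all genes kept was -0.02. The 25th and 75th percentiles were -1.46 and -0.56 for the members, and -0.25 and 0.18 for all genes kept. All 35 passed the filter, Gjb6 and Cldn10 only through the wild-type library. The counts of member groups and gene lists below are to be read beside the 1.5-fold shares of all genes kept, 10.2% lower and 4.22% higher.

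The 35 genes together took 0.672% of the reads in the cKO library and 1.19% in the wild-type library. Without Apoe, the member with the most reads, the shares were 0.574% and 0.975%. The difference was thus spread over many members. Among genes with a mean of at least 100 CPM over both libraries, 16 of 22 members were at least 1.5-fold lower, beside 5.05% of all 2454 such genes. In these bulk libraries fewer cells of a type and less RNA per cell cannot be told apart.

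**Figure D1:**
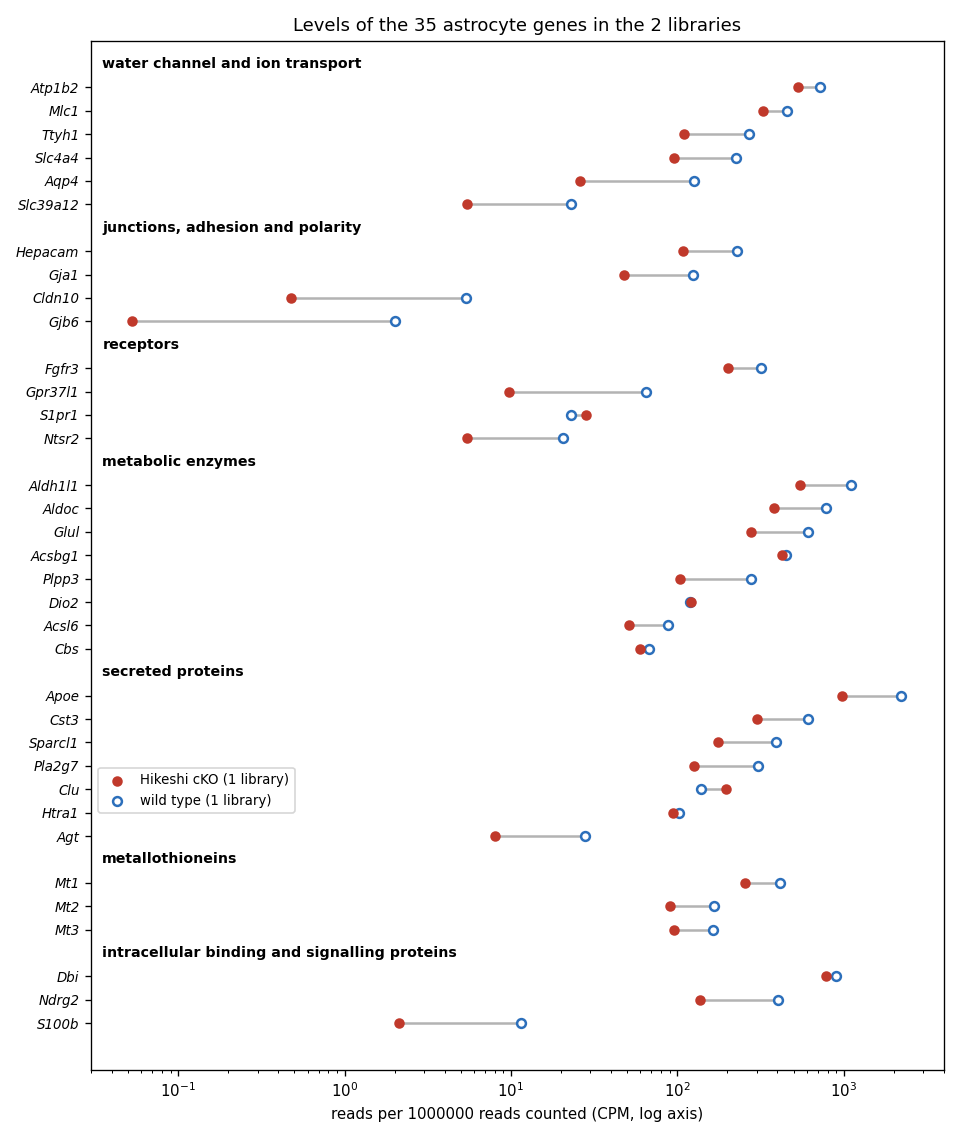
Level of each of the 35 astrocyte genes in the cKO library (filled red points) and the wild-type library (open blue points), in CPM on a log axis, by role; a grey line joins the values of a gene. The wild-type point lies to the right for 32 genes, by the widest gap for Gjb6 (0.053 against 2.02 CPM), and to the left for Clu, S1pr1 and Dio2.

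Intervals given with a fold are 95% counting intervals from the reads of these libraries. By them 32 members were lower and 2 higher in the cKO library, and 1, Dio2, was not distinguishable. The same count over all genes kept was not made. Well-read genes pass by it at small gaps, such as Acsbg1 at 1.05-fold lower (1.02 to 1.08). By sign alone 32 members lay below 0, beside 6581 of the 12618 genes kept. Such an interval covers counting error only and not the spread between cultures or animals. By ratio of CPM, 8 members were at least 3-fold lower, 13 between 2-fold and 3-fold lower, and 5 between 1.5-fold and 2-fold lower. Among the lower members Fgfr3 was the nearest to 1.5-fold beyond it, at 1.57-fold lower, and Mlc1 the nearest short of it, at 1.39-fold lower.

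**Figure D2:**
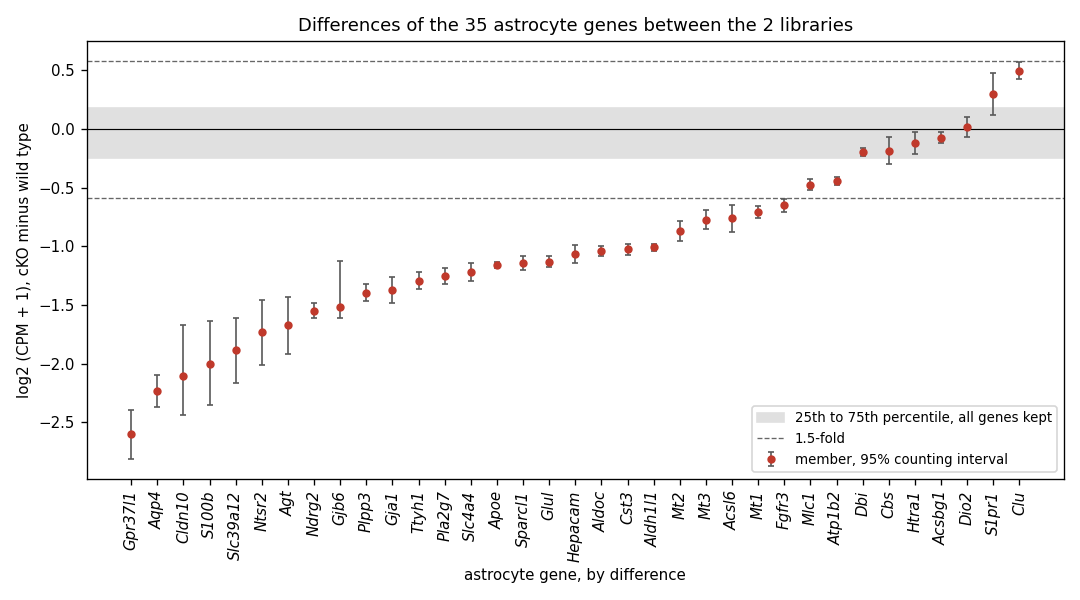
Difference of each astrocyte gene on the log2(CPM + 1) scale, cKO minus wild type, in rising order, with 95% counting intervals; dashed lines mark 1.5-fold and the grey band runs from the 25th to the 75th percentile of all genes kept. The values run from -2.60 (Gpr37l1) to 0.50 (Clu), and 26 points lie below the lower dashed line.

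The order of levels was largely shared by the libraries. On the deposited TPM scale, which accounts for transcript length, Dbi stood first with 4552 TPM in the cKO library and 5341 TPM in the wild-type library. Mt1 came second in the cKO library (1729 TPM) and Apoe second in the wild-type library (3710 TPM). Members above 1000 TPM numbered 4 in the cKO library and 6 in the wild-type library, and members below 10 TPM numbered 8 and 1. The median member had 86.9 TPM in the cKO library and 154 TPM in the wild-type library.

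Of the 6 transport genes, 4 lay at least 1.5-fold lower in the cKO library and the remaining 2 lay lower by less. Aqp4, the water channel of the endfeet, had 26.2 CPM in the cKO library and 127 CPM in the wild-type library and was 4.85-fold lower (4.40 to 5.35). Slc39a12, a zinc importer enriched in brain, had 5.45 CPM (cKO) and 22.8 CPM (wild type), or 4.19-fold lower (3.37 to 5.25). These were the widest gaps of the group.

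The sodium bicarbonate cotransporter gene Slc4a4, which sets pH in astrocytes, had 96.0 CPM in the cKO library and 225 CPM in the wild-type library, 2.34-fold lower (2.22 to 2.48). Ttyh1, a membrane protein of the tweety family found in stem cells and astrocytes, had 109 CPM (cKO) and 269 CPM (wild type), 2.46-fold lower (2.34 to 2.59). The other 2 members lay closer together. Atp1b2, a beta subunit of the sodium pump, had 533 CPM (cKO) and 724 CPM (wild type), 1.36-fold lower (1.33 to 1.396). Mlc1, a membrane protein mutated in a leukodystrophy with cysts, had 328 CPM (cKO) and 456 CPM (wild type), 1.39-fold lower (1.35 to 1.44).

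The partners of these proteins were read from a list of 15 endfoot and MLC1 partner genes, of which 14 were kept. Of these, 2 (14.3%) lay at least 1.5-fold lower, beside 10.2% of all genes kept. In the other direction 0 lay as far, and the median was -0.27. The caveolin gene Cav1 had 60.0 CPM in the cKO library and 97.8 CPM in the wild-type library, 1.63-fold lower (1.51 to 1.76). Kcnj10, the potassium channel that clusters with aquaporin-4, had 94.4 and 139 CPM, 1.47-fold lower (1.39 to 1.56). Among the beta subunits on the TPM scale, Atp1b2 made up 49.99% of the summed level of Atp1b1, Atp1b2 and Atp1b3 in the cKO library and 58.6% in the wild-type library.

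All 4 genes of junctions and adhesion were at least 1.5-fold lower in the cKO library, beside 10.2% of all genes kept. Of these 4, Gjb6 and Cldn10 were kept only through the wild-type library. Gja1, which encodes connexin 43, the main gap junction protein of astrocytes (chromosome 10, from 56377300 to 56390419), had 47.6 CPM in the cKO library and 125 CPM in the wild-type library, 2.62-fold lower (2.42 to 2.83). Gjb6, which encodes connexin 30, a connexin of more mature astrocytes, had 1 read in the cKO library and 38 in the wild-type library. Its ratio corresponds to 38.1-fold lower, with a counting interval of 6.45 to 1546. The interval is wide because the count was so small.

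Cldn10, a claudin of tight junctions, had 9 reads in the cKO library and 101 in the wild-type library, 11.3-fold lower (5.70 to 25.3). Hepacam encodes GlialCAM, the adhesion protein that brings MLC1 and chloride channels to cell contacts. It had 109 CPM (cKO) and 229 CPM (wild type), 2.10-fold lower (1.996 to 2.22), a wider gap than that of Mlc1. Of 17 other connexin, pannexin and linker genes only 6 were kept, with 2 (33.3%) lower, 0 higher and a median of -0.32. Of all genes kept, 10.2% were lower. One of the 2 was Gjc3, a connexin of oligodendrocytes, with 37 reads (cKO) and 125 reads (wild type), 3.39-fold lower (2.33 to 5.04). The other was Panx2, named after its values were seen, with 4 reads (cKO) and 30 reads (wild type). Panx2 was kept only through the wild-type library.

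Of the 4 receptors, 3 were at least 1.5-fold lower in the cKO library and 1, S1pr1, was slightly higher. Gpr37l1, an orphan receptor of astrocytes (chromosome 1, from 135160250 to 135167681), had 185 reads in the cKO library and 1215 in the wild-type library, or 9.78 and 64.5 CPM, 6.59-fold lower (5.64 to 7.74). It had the lowest difference of all members, -2.60, and ranked 35th from the lowest of the 12618 genes kept. Ntsr2, a neurotensin receptor, had 5.45 CPM (cKO) and 20.4 CPM (wild type), 3.75-fold lower (3.01 to 4.71). Fgfr3, the fibroblast growth factor receptor of radial glia and astrocytes, had 203 CPM (cKO) and 320 CPM (wild type), 1.57-fold lower (1.51 to 1.64).

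S1pr1, a receptor for the lipid signal sphingosine 1-phosphate, had 538 reads in the cKO library and 431 in the wild-type library, a ratio of 1.24 (1.09 to 1.41). It thus stood on the other side of the neighbouring receptors. Among 10 kept genes that make, export, degrade or sense this lipid, 1 (10%) passed 1.5-fold upwards and 2 (20%) downwards. Of all genes kept, 4.22% passed upwards and 10.2% downwards. The median of the list was 0.10 but the mean -0.11. The kinase gene Sphk1 had 20.6 CPM (cKO) and 12.05 CPM (wild type), a ratio of 1.71 (1.45 to 2.02). The receptor gene S1pr3 had 32.0 CPM (cKO) and 60.3 CPM (wild type), 1.89-fold lower (1.71 to 2.08), and the exporter gene Spns2 6.29 and 11.7 CPM, 1.86-fold lower (1.49 to 2.35).

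The metabolic enzymes were split, with 5 of 8 at least 1.5-fold lower and the other 3 within 1.2-fold. Aldh1l1, the folate enzyme widely used to mark astrocytes, had 548 CPM in the cKO library and 1105 CPM in the wild-type library, 2.02-fold lower (1.97 to 2.06). Aldoc, the brain aldolase of glycolysis, had 380 and 781 CPM, 2.06-fold lower (1.999 to 2.11). Glul, which encodes glutamine synthetase and turns glutamate taken up at synapses into glutamine, had 277 and 608 CPM, 2.20-fold lower (2.13 to 2.27). The gaps of these 3 enzymes were close to one another.

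Plpp3, a lipid phosphate phosphatase at the cell surface, had 105 CPM in the cKO library and 277 CPM in the wild-type library, 2.65-fold lower (2.51 to 2.79). Acsl6, which activates long-chain fatty acids and is tied to docosahexaenoic acid in brain, had 51.4 and 87.8 CPM, 1.71-fold lower (1.58 to 1.85). Both act on lipids, as does Acsbg1, another acyl-CoA synthetase, which hardly differed at 427 CPM (cKO) and 449 CPM (wild type), 1.05-fold lower (1.02 to 1.08).

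Dio2, the deiodinase that makes active thyroid hormone in astrocytes, had 121 CPM in the cKO library and 119 CPM in the wild-type library, a ratio of 1.01 (0.953 to 1.07). Cbs, which makes cystathionine and hydrogen sulfide, had 59.4 and 67.7 CPM, 1.14-fold lower (1.05 to 1.23). Neither of them shared the gap of about 2-fold seen in Aldh1l1, Aldoc and Glul.

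Related genes outside the 35 were split as well. Among 15 kept genes of the glutamate and glutamine cycle, 4 (26.7%) passed 1.5-fold downwards and 0 upwards (median -0.17). Of all genes kept, 10.2% passed downwards and 4.22% upwards. The glutamate transporter genes Slc1a2 and Slc1a3, which feed glutamine synthetase, had 151 and 1080 CPM in the cKO library, against 379 and 1661 CPM in the wild-type library. They were 2.51-fold (2.41 to 2.63) and 1.54-fold (1.51 to 1.57) lower. Slc1a1, a transporter also of neurons and oligodendrocyte precursors, had 16.4 CPM (cKO) and 106 CPM (wild type), 6.44-fold lower (5.71 to 7.28). The glutamine transporter gene Slc38a3 had 59.7 and 119 CPM, 1.999-fold lower (1.86 to 2.15).

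In 16 genes of fatty acid activation, binding and oxidation, 4 (25%) were lower and 0 higher (median -0.18). Of all genes kept, 10.2% were lower and 4.22% higher. Fabp5, a fatty acid carrier, had 570 CPM (cKO) and 1025 CPM (wild type), 1.80-fold lower (1.76 to 1.84), and Cpt1a, the gate of mitochondrial oxidation, 29.1 and 48.0 CPM, 1.65-fold lower (1.48 to 1.83). On the TPM scale Acsl6 made up 4.30% of the summed level of 6 acyl-CoA synthetase genes in the cKO library and 7.63% in the wild-type library. In thyroid hormone handling 3 of 5 kept genes (60%) were lower and 0 higher (median -0.60). Among the 3 were the receptor genes Thrb, 1.96-fold lower (1.56 to 2.46), and Thra, 1.52-fold lower (1.45 to 1.59). Of 12 transsulfuration and methionine cycle genes 1 (8.33%) was lower and 0 higher (median -0.11), a lower share below that of all genes kept. The lower gene was Cdo1, the cysteine dioxygenase, with 14.1 CPM (cKO) and 45.4 CPM (wild type), 3.23-fold lower (2.81 to 3.72).

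Aldoc was not alone among genes of glycolysis and the hypoxia response. In a list of 16 of them 15 (93.75%) passed 1.5-fold downwards and 0 upwards (median -1.14). The share lower was 74.3% among the 35 members and 10.2% among all genes kept. The part of glycolysis and the hypoxia response in the values of Aldoc and the other members was not tested. Of the 15, Car9, named after its values were seen, was kept only through the wild-type library. Aldoa, the aldolase of most tissues, had 780 CPM (cKO) and 1191 CPM (wild type), 1.53-fold lower (1.496 to 1.56). Aldoc made up 19.8% of the summed TPM of both aldolases in the cKO library and 24.9% in the wild-type library. Slc16a3, which exports lactate, had 6.61 CPM (cKO) and 60.6 CPM (wild type).

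Of the 7 secreted proteins, 5 were at least 1.5-fold lower, 1 was near its wild-type level and 1 was higher in the cKO library. Apoe, the main lipoprotein of the brain (GRCm38.p6 chromosome 7, from 19696244 to 19701310), had 18609 reads in the cKO library and 41434 in the wild-type library. These reads come to 984 and 2199 CPM, 2.24-fold lower (2.20 to 2.27). Cst3, the protease inhibitor cystatin C, had 301 and 614 CPM, 2.04-fold lower (1.97 to 2.10). Sparcl1, also called hevin, which promotes synapse formation, had 176 and 390 CPM, 2.22-fold lower (2.13 to 2.31).

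Pla2g7, a secreted phospholipase that cleaves platelet-activating factor, had 127 CPM in the cKO library and 304 CPM in the wild-type library, 2.40-fold lower (2.29 to 2.52). Agt, which encodes angiotensinogen, the precursor of angiotensin, had 8.04 and 27.9 CPM, 3.47-fold lower (2.89 to 4.18). It was the secreted member with the widest gap. Other genes of the angiotensin system were sparse, with 2 of 10 kept (Ace and Atp6ap2) and 0 of them 1.5-fold apart (median -0.17).

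Clu and Htra1 differed from the rest of the secreted group. Clu (chromosome 14, 65968483 to 65981548), which encodes clusterin, an extracellular chaperone and lipoprotein, had 3725 reads in the cKO library and 2621 in the wild-type library. Its ratio of CPM was 1.42 (1.35 to 1.49), the highest of the 35. Htra1, a secreted serine protease, had 93.96 CPM (cKO) and 102 CPM (wild type), 1.09-fold lower (1.02 to 1.16). Apoe and Clu, both apolipoproteins, thus stood on opposite sides.

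Genes that load, take up or sense lipoproteins lay mostly a little lower in the cKO library. Of 14 kept genes 13 lay below 0, beside 6581 of all 12618 genes kept, and the median was -0.31. Only 2 (14.3%) passed 1.5-fold downwards, beside 10.2% of all genes kept, and 0 upwards. The cholesterol exporter gene Abcg1 had 43 reads (cKO) and 142 reads (wild type), 3.32-fold lower (2.34 to 4.78). Lcat, the enzyme that esterifies cholesterol on lipoproteins, had 52 and 138 reads, 2.66-fold lower (1.92 to 3.74).

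The 3 metallothioneins, small proteins that bind zinc and copper, were lower by similar amounts. Mt1 had 254 CPM in the cKO library and 416 CPM in the wild-type library, 1.64-fold lower (1.58 to 1.70). Mt2 had 90.05 and 166 CPM, 1.84-fold lower (1.73 to 1.95). Mt3, the brain form, had 95.9 and 164 CPM, 1.71-fold lower (1.62 to 1.82). Mt1 and Mt2 are close in sequence and could share reads, and their summed reads were 1.69-fold lower (1.64 to 1.74). The shares within the family were close on the TPM scale, with Mt1 at 58.0% (cKO) and 56.1% (wild type), Mt2 at 19.6% and 21.2%, and Mt3 at 22.4% and 22.7%.

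The genes lie in 1 cluster on chromosome 8. Mt1 and Mt2 are known to be switched on by metals through MTF1, a factor that binds metal response elements, whereas Mt3 responds little to metals. Their promoter windows are shown because the 3 genes differed by similar amounts. Each window runs from 250 bases before to 50 bases after a transcript start in RefSeq (GRCm38.p6). It is written 5′ to 3′, with matches to the element core TGCACNC or TGCGCNC on either strand in capitals.
Mt1 (chr8:94178839-94179138, plus strand): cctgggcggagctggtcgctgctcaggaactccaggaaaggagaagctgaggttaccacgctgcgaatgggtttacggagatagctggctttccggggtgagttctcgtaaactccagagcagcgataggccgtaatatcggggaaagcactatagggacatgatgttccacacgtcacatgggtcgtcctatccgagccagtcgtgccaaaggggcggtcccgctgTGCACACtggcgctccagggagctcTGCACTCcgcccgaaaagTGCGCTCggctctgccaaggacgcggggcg
Mt2 (chr8:94172368-94172667, plus strand): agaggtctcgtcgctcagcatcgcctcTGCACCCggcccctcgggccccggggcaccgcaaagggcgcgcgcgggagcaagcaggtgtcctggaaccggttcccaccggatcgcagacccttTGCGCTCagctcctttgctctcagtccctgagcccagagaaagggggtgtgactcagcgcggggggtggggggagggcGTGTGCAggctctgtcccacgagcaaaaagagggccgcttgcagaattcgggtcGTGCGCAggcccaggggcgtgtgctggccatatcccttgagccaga
Mt3 (chr8:94152357-94152656, plus strand): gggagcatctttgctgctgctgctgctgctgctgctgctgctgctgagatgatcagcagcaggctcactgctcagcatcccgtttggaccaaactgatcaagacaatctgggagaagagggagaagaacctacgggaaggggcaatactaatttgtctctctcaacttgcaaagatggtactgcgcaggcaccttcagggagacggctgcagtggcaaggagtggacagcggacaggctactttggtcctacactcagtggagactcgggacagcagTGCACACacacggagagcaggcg
Mt1 held 3 matches, Mt2 held 4 and Mt3 held 1. At least 1 match was present in 25.9% of 32544 distinct promoter windows of the same length, and at least 3 in 1.98%. A match describes letters and not binding.

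Metal handling genes outside the family lay on both sides. Of 19 kept zinc and metal genes 1 (5.26%) passed 1.5-fold upwards and 2 (10.5%) downwards, and the median was -0.03. Both shares were close to those of all genes kept, 4.22% and 10.2%. Mtf1 itself had 28.8 CPM (cKO) and 29.2 CPM (wild type), a ratio of 0.985 (0.874 to 1.11). Slc30a1, a zinc exporter that MTF1 also controls, had 41.6 and 51.7 CPM, 1.24-fold lower (1.13 to 1.37). Slc30a4, a zinc transporter of vesicles, had 197 and 70.1 CPM, a ratio of 2.80 (2.63 to 2.99). The 2 lower genes, Slc30a10 and Slc39a8, were named after their values were seen, with 5 and 9 reads in the cKO library, against 74 and 35 in the wild-type library, and both were kept only through the wild-type library. Glucocorticoid targets, a class that metallothioneins and Glul belong to, had 1 of 9 (11.1%) higher and 0 lower (median 0.16). Of all genes kept, 4.22% were higher and 10.2% lower. The higher target was the phosphatase gene Dusp1 at a ratio of 1.73 (1.46 to 2.05).

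The last 3 members work inside the cell. S100b, a calcium-binding protein, had 40 reads in the cKO library and 216 in the wild-type library, 5.42-fold lower (3.85 to 7.80). Ndrg2, a protein of the NDRG family used as a marker of mature astrocytes, had 137 and 401 CPM, 2.94-fold lower (2.81 to 3.07). Dbi, which binds acyl-CoA esters and is abundant in stem cells as well as in astrocytes, had 788 and 903 CPM, 1.15-fold lower (1.12 to 1.17). The member with the highest TPM was therefore among those with the smallest gaps.

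**Figure D3:**
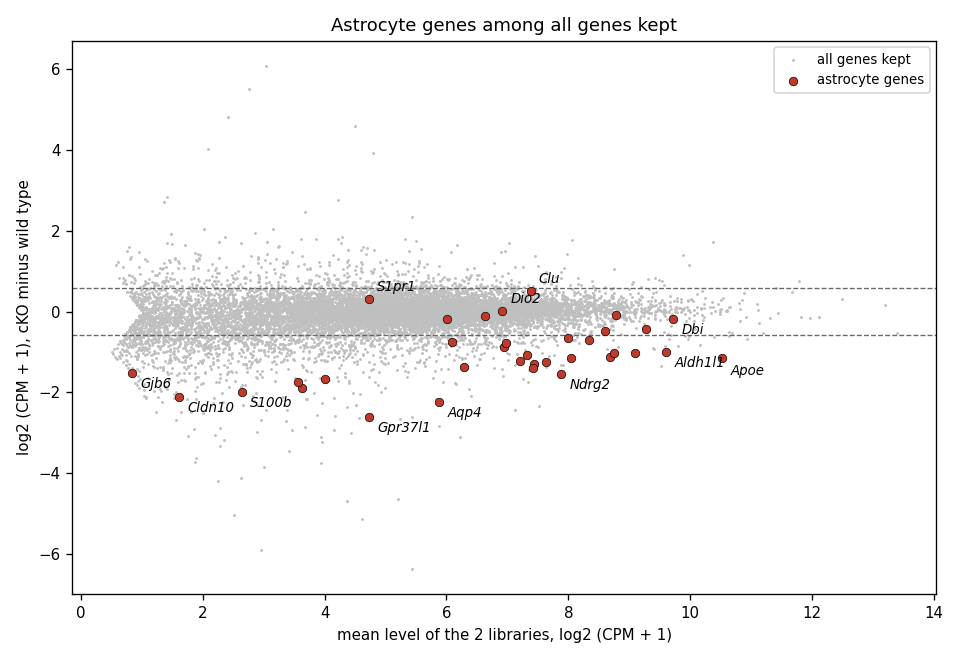
Difference on the log2(CPM + 1) scale, cKO minus wild type, against the mean level of both libraries, for all genes kept (grey) and the 35 astrocyte genes (red); dashed lines mark 1.5-fold. The astrocyte genes lie mostly below the lower line at low and at high levels, from Gjb6 on the left to Apoe on the right, with Clu, S1pr1 and Dio2 above 0.

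Placed among all genes, 26 members were in the lowest 10% of the 12618 genes kept, and 6 were among the 126 lowest. Those 6 were Gpr37l1, Aqp4, Cldn10, S100b, Slc39a12 and Ntsr2, and each had under 27 CPM in the cKO library. At the other end Clu ranked 11855th from the lowest.

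Astrocyte genes outside the 35 were also read. Of 48 such genes 45 were kept, 24 (53.3%) passed 1.5-fold downwards and 1 (2.22%) upwards, and the median was -0.60. Of all genes kept, 10.2% passed downwards and 4.22% upwards. Of the 24, 5 were kept only through the wild-type library (Grin2c, Phkg1, Slc14a1, Itih3 and Slc7a10). Gfap, the astrocyte filament, had 80.3 CPM in the cKO library and 412 CPM in the wild-type library, 5.13-fold lower (4.86 to 5.43). Slc6a11, a transporter that clears GABA, had 173 and 576 CPM, 3.34-fold lower (3.21 to 3.47), and Grin2c, a glutamate receptor subunit of astrocytes, 18 and 115 reads, 6.41-fold lower (3.88 to 11.2). The higher gene was the transcription factor gene Zbtb20, with 108 reads in the cKO library and 62 in the wild-type library, a ratio of 1.74 (1.26 to 2.41).

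The transcription factors of the programme were split. Sox9 had 144 CPM in the cKO library and 240 CPM in the wild-type library, 1.66-fold lower (1.58 to 1.74). Nfia had 110 and 114 CPM, a ratio of 0.971 (0.914 to 1.03). Some secreted and nuclear factors of astrocytes lay above 0 without reaching 1.5-fold, and these were named after their values were seen. Chrdl1, a secreted BMP antagonist of astrocytes, had 104 and 69.8 CPM, and Id3, a BMP target, 141 and 96.8 CPM.

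Signals that induce astrocytes showed no common direction. Of 27 genes 5 (18.5%) passed 1.5-fold upwards and 3 (11.1%) downwards in the cKO library (median -0.03). Of all genes kept, 4.22% passed upwards and 10.2% downwards, so only the upward share stood clearly above that of all genes. Of the 5, Bmp2, named after its values were seen, had 48 reads (cKO) and 13 reads (wild type). Bmp2 was kept only through the cKO library. The NOTCH ligand gene Jag1 had 43.8 CPM (cKO) and 20.3 CPM (wild type), a ratio of 2.16 (1.91 to 2.44). Id1 had 75.8 and 44.5 CPM, a ratio of 1.70 (1.56 to 1.86), and the cytokine gene Lif 16.6 and 10.5 CPM, a ratio of 1.58 (1.32 to 1.90). The NOTCH target Hes5 had 16.8 and 43.0 CPM, 2.57-fold lower (2.25 to 2.93), and the LIF receptor gene Lifr 26.1 and 40.7 CPM, 1.56-fold lower (1.39 to 1.75). Bmp4, named after its values were seen, had 0 reads in the cKO library and 64 in the wild-type library. Against a floor of 3 reads in the cKO library this was 21.4-fold lower, and the counting interval put Bmp4 at least 16.9-fold lower. It was kept only through the wild-type library. Setting it to the 21.4-fold value from the floor left the median of the list at -0.03.

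**Figure D4:**
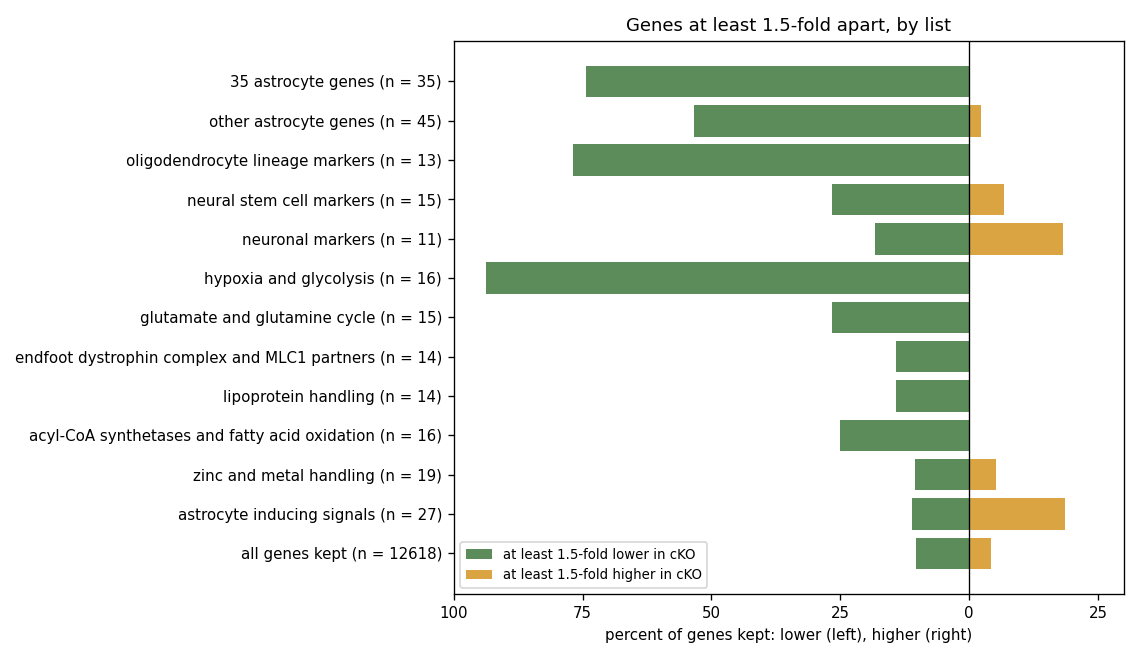
Percent of the genes kept in each list that were at least 1.5-fold lower (green, to the left) or higher (yellow, to the right) in the cKO library than in the wild-type library; n is the number of genes kept. The bar to the left reaches 74.3% for the 35 astrocyte genes, 53.3% for other astrocyte genes and 10.2% for all genes kept.

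Markers of other cells were read in the same libraries. Of 13 kept oligodendrocyte lineage markers 10 (76.9%) passed 1.5-fold downwards, 2 of these kept only through the wild-type library, and 0 upwards (median -3.62). Of all genes kept, 10.2% passed downwards and 4.22% upwards. The oligodendrocyte list summed to 2521 CPM in the cKO library and 3952 CPM in the wild-type library. The part of oligodendrocyte lineage cells in the values of S100b and other shared genes was not tested. Of 15 neural stem cell markers 1 (6.67%) was higher and 4 (26.7%) lower (median -0.14), with sums of 7837 CPM (cKO) and 6482 CPM (wild type). The higher one was the filament gene Vim, at 4578 and 2716 CPM, and without it the sums were 3259 CPM (cKO) and 3766 CPM (wild type). The lower cKO sum without Vim rests on Fabp7, also one of the other astrocyte genes, at 1287 CPM (cKO) and 1947 CPM (wild type). Of the 15 markers, 6 lay above 0 and 9 below.

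Neuronal markers were split, with 2 of 11 kept genes higher and 2 lower (18.2% each, median 0.03). Of all genes kept, 4.22% were higher and 10.2% lower. The neuronal markers summed to 725 CPM (cKO) and 828 CPM (wild type). Microglia markers summed to 0.317 CPM in the cKO library and 0.372 CPM in the wild-type library, and 0 of 11 were kept, Aif1 and C1qa not being listed. Endothelial markers summed to 8.99 and 10.2 CPM (0 of 2 kept were 1.5-fold apart, median -0.02), and pericyte and meningeal markers to 10.7 and 11.5 CPM (1 of 3 kept lower, 0 higher, median -0.58). Ependymal and choroid plexus markers summed to 10.6 and 14.1 CPM (1 of 2 kept lower, 0 higher, median -0.58). The lower one, Aqp1, named after its values were seen, was kept only through the wild-type library. The endothelial genes Cdh5 and Cldn5 were not listed, and the choroid plexus gene Ttr had 1 read in the cKO library and 0 in the wild-type library. A few genes of these classes had more reads. Flt1, an endothelial receptor also named here after its values were seen, had 83 reads (cKO) and 132 reads (wild type), the pericyte receptor gene Pdgfrb 41 and 84, and Foxj1, the factor of multiciliated ependymal cells, 184 and 224. The part of such cells in the values of the astrocyte genes was not tested.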

How the data were processed

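RNA of mouse neural stem cells in suspension culture was sequenced in 1 library per genotype, grouped by the genotype labels. The authors deposited estimated counts of reads per gene, TPM, FPKM and a normalized read count (a signal equal to the read count times 1 constant per library, 1.00261 for cKO and 0.997397 for wild type), all named per the file headers. Per the submitters' processing notes, reads were placed on GRCm38.p6. Aligner, counting tool, annotation and strand setting were not given in the sources used here.

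Estimated counts were rounded to whole reads and divided by column totals to give CPM. Genes with at least 1 CPM in 1 library were kept. Differences are log2 of CPM with 1 CPM added, which understates the difference of low genes. Folds are ratios of CPM without it. Counting intervals (95%) are exact conditional Clopper-Pearson limits (scipy 1.17.1). They and the floor of 3 reads (0.159 CPM in either library) cover counting error only, since reads are not independent molecules. With 1 library a group no p-value was computed.

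The members and 21 further gene lists were chosen with earlier results of these data known, and lists share genes. Named genes were the members, Hikeshi, up to 3 genes of each list on either side past 1.5-fold with 5 CPM or more in the higher library, and a set chosen by name. A few genes the rule takes are not reported here. Alternatives were other pseudocounts and filters, edgeR 4.0.16 TMM factors, DESeq2 1.42.0 size factors and the other deposited values. Coordinates and promoters came from RefSeq (GRCm38.p6), with all 35 members matched by gene number and 30 matched to a promoter window. In GENCODE, 8 members share exon bases with a gene on the opposite strand (Acsl6, Aldh1l1, Dio2, Fgfr3, Glul, Mt2, Pla2g7 and Ttyh1), and without a known strand setting reads of such pairs cannot be told apart.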

Additional observations from a re-analysis of the deposited data

How the results depend on the processing

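Under all 9 alternatives the count of members at least 1.5-fold lower was 25 or 26, the count higher stayed at 0, the count at least 2-fold lower was 19 to 21, and the median lay between -1.07 and -1.01. No member changed sign. Gjb6 was within 1.5-fold with a pseudocount of 5 CPM (log2 difference -0.47) and fell below a filter of 5 CPM. The added 5 CPM also brought Cldn10 to -0.92 and S100b to -1.21, from -2.11 and -2.00 with 1 CPM, and moved 8 members beyond their counting interval. With 0.1 CPM added, Gjb6 was at -3.79, Cldn10 at -3.25 and S100b at -2.38. Of the other astrocyte genes, 19 to 24 were lower. The pseudocount of 5 CPM moved the calls over all genes to 304 higher and 674 lower, beside 532 and 1290 with 1 CPM. Depth limits Gjb6, Cldn10 and S100b, the members with under 100 reads in the cKO library. No paired analysis was possible because each genotype has 1 library.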

Other observations

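Promoter windows were available for 30 of the 35 members, 41 windows in all. The hypoxia response core ACGTG or GCGTG, on either strand, was present in 51.2% of them and in 44.0% of all 32544 distinct windows. A STAT site, TTCNNNGAA, was present in 12.2% of member windows (Acsbg1, Agt, Aldoc, Ntsr2 and Pla2g7) and in 8.33% of all windows. The NFI palindrome was in 0 member windows and in 0.0369% of all windows. These shares describe letters only, and windows of 1 gene can overlap.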
